A study of Mus musculus with 9 samples.

Results

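Mitochondrial ribosomal proteins were examined as the genes whose symbol starts with Mrpl or Mrps followed by a number, with pseudogenes left out. The rule found 66 of the 11802 genes in the deposited table, 44 of the large subunit and 22 of the small subunit by symbol. GENCODE M21 annotates 78 protein-coding genes of these names, 49 large and 29 small. The other 12 (Mrpl14, Mrpl42, Mrpl47, Mrpl53, Mrpl55, Mrps16, Mrps18b, Mrps18c, Mrps22, Mrps27, Mrps34 and Mrps36) were not analysed here.

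The mitochondrial ribosome, or mitoribosome, translates the few messenger RNAs that mitochondrial DNA encodes, all of them for subunits of oxidative phosphorylation. Its small subunit binds the messenger RNA and reads the codons, and its large subunit joins the amino acids and opens into the exit tunnel. The 2 ribosomal RNAs, mt-Rnr1 of the small and mt-Rnr2 of the large subunit, come from mitochondrial DNA, whereas the proteins come from nuclear genes, are made on cytosolic ribosomes and are imported. About these proteins it is also known that some descend from bacterial ribosomal proteins and others have no bacterial counterpart.

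The libraries hold RNA captured with ribosomes of white adipose tissue endothelium in mice. RiboTag mice express an HA-tagged ribosomal protein Rpl22 after Cre acts, and the tag allows cytosolic ribosomes of the chosen cells to be pulled down with their RNA. The WT group (4 libraries) carried Pdgfb-iCreERT2:Rpl22HA, and its label gives Mfn2 as present in endothelial cells. The KO group (5 libraries) carried Pdgfb-iCreERT2:Mfn2iΔEC:Rpl22HA and lacked Mfn2, the outer-membrane fusion protein mitofusin 2, in those cells. Both groups therefore shared the inducible Cre, whose Pdgfb promoter is active in endothelium, and the tagged ribosome. The labels state neither age nor sex nor the time since Cre induction. Replicates are labelled biological and no animal is named, so p-values measure only the spread between these libraries, which may be technical. In tissue captures, fewer cells of a type and less RNA per cell cannot be told apart.

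Values are in CPM, which scales each gene's reads to the same library total, and the reads behind them could be recovered as whole numbers. Listed reads ran from 1034753 in WT replicate 4 to 3829356 in KO replicate 5. The mitochondrial rRNAs took 13.9% to 64.8% of listed reads in WT and 12.8% to 25.2% in KO, and 94.6% of all genes had a higher deposited value in KO. Results over the members are therefore given in the deposited CPM and again relative to the library median, after each library's median log2(CPM + 1) was subtracted. For part of the single genes only the deposited values are given. All 15 endothelial markers were detected in every library, with a summed level of 832 to 2958 CPM in WT and 2670 to 6059 CPM in KO. Summed adipocyte markers ran from 3492 to 7363 CPM in WT and from 9224 to 21247 CPM in KO. Most of that sum was Fabp4, at 2589 to 5973 CPM in WT and 7167 to 18869 CPM in KO. Relative to the library median, all 15 endothelial markers were higher in KO, with a median log2 fold change of 0.62. Of the 11 adipocyte markers 5 were higher and 6 lower on that scale (median -0.03). All 7 measured skeletal muscle markers were higher (median 2.05). Of 8 measured fibroblast and preadipocyte markers 7 were lower (median -0.78), as were 7 of 8 macrophage markers (-0.33). Pericyte and smooth muscle markers (6 measured, median -0.02) and erythroid markers (5, median 0.03) were split. Summed skeletal muscle markers ran from 76.7 to 251 CPM in WT and from 401 to 769 CPM in KO replicates 1 to 4, with 7346 CPM in KO replicate 5. No adipocyte or skeletal muscle marker of the measured ones was at 0 in any library. The part of any of these cell types in the mitoribosomal values was not tested. Mfn2 itself was at 20.3, 55.8, 30.5 and 38.0 CPM in WT and 130, 35.4, 57.0, 65.6 and 46.0 CPM in KO. The groups overlapped (relative log2 fold change -0.16, limma adjusted p = 0.898), and reads outside the deleted part of the gene cannot check the deletion.

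Promoters of 4 members are printed here: 3 that hold the core letters of the NRF1 motif, of which the gene rose in 1 and did not pass in the other 2, and that of Mrps11, which lies head to head with the member Mrpl46. NRF1, the ETS factor GABP and YY1 are transcription factors for which promoters of nuclear genes with mitochondrial products are often searched. The sequences are from RefSeq (GRCm38.p6), from 250 bases before to 50 bases after the transcript start, 5′ to 3′ on the gene's strand. Capitals mark a match, on either strand, to the NRF1 core (CGCATGCG, which reads the same on both strands) in Mrpl9, Mrpl32 and Mrpl39, and to the YY1 motif (AAGATGGCG) in Mrps11, where it lies on the opposite strand. The windows lie at chr3:94443086-94443385 (plus strand, Mrpl9), chr13:14612988-14613287 (minus, Mrpl32), chr16:84735195-84735494 (minus, Mrpl39) and chr7:78782881-78783180 (plus, Mrps11).
Mrpl9: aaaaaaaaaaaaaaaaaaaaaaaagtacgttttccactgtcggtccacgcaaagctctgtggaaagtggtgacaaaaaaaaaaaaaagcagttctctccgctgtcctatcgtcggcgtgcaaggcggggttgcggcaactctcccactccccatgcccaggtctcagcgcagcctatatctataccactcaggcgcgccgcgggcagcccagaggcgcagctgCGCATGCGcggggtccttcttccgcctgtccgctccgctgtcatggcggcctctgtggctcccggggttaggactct
Mrpl32: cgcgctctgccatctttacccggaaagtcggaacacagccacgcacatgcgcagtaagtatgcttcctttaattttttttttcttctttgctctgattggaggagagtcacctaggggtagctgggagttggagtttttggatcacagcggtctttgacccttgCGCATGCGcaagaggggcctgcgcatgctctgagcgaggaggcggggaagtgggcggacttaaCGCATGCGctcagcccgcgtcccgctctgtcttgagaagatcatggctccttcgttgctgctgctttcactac
Mrpl39: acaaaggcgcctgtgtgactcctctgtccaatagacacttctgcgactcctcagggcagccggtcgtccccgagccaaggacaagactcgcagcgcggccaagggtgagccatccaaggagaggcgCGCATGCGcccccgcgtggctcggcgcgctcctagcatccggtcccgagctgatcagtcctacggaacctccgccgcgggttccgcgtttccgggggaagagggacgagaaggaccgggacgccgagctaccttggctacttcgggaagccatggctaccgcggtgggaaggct
Mrps11: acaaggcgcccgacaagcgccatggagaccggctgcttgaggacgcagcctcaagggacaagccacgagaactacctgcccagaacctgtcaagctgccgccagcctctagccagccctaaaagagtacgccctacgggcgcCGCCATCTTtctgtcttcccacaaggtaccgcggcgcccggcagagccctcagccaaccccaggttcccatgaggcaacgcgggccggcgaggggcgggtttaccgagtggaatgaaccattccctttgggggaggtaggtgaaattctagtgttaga

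The NRF1 core starts 27 bases before the transcript start in Mrpl9, 86 and 23 bases before it in Mrpl32 and 124 bases before it in Mrpl39. A promoter was listed for 58 members, 38 large and 20 small. The core was in 6 of the 58 (10.3%, against 4.53% of the 7921 promoters of protein-coding genes in the table), all of the large subunit: Mrpl9, Mrpl10, Mrpl17, Mrpl22, Mrpl32 and Mrpl39. With the fifth base left free (CGCANGCG) it was in 17 of the 58 (29.3%, against 20.2%), an ETS motif (CCGGAAGT) in 9 (15.5%, against 9.54%) and the YY1 motif in 6 (10.3%, against 3.86%). At least 1 of the last 3 motifs was in 23 of 38 large-subunit and in 7 of 20 small-subunit promoters, against 30.2% of the table's coding genes. The core is part of the form with a free base, so those counts overlap. These are matches of letters, with no measurement of binding.

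The mitoribosomal protein genes were weakly sampled. The median member had 6 to 9 reads in the WT libraries and 16 to 61.5 reads in the KO libraries. No read was found for 9, 4, 9 and 7 of the 66 members in the 4 WT libraries, in order of replicate number, and every member had reads in every KO library. A count of 0 allows up to 3 reads, which is 1.19 to 2.85 CPM in the WT libraries. Mean levels over the 9 libraries ran from 2.68 to 33.5 CPM, with a median of 7.54 CPM against 16.8 CPM for all genes. The median coefficient of variation within WT was 81.9% for large-subunit and 77.1% for small-subunit genes, and within KO it was 51.8% and 47.6%.

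Levels per kilobase of exon spread over 22.2-fold among the members. Mrps21, homolog of a bacterial small-subunit protein, had the highest mean at 15.3 CPM per kb, followed by Mrpl38 at 12.2, Mrps33 at 10.6, Mrpl9 at 10.3 and Mrpl12 at 9.21 CPM per kb. Mrpl38 belongs to the proteins with no bacterial counterpart, and Mrpl12 forms the flexible stalk that recruits translation factors. The small-subunit gene Mrps10 had the lowest mean, 0.689 CPM per kb, and Mrps35 had 0.714 CPM per kb. The lowest large-subunit means were 1.04 CPM per kb for Mrpl23, whose protein lines the exit tunnel, and 1.26 CPM per kb for Mrpl13. The medians of the subunits were close, 3.54 CPM per kb over large-subunit and 3.06 CPM per kb over small-subunit genes. These orders are descriptions: the neighbours named differ by less than the spread between libraries, since Mrps21 alone ran from 3.60 to 30.1 CPM.

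**Figure D1:**
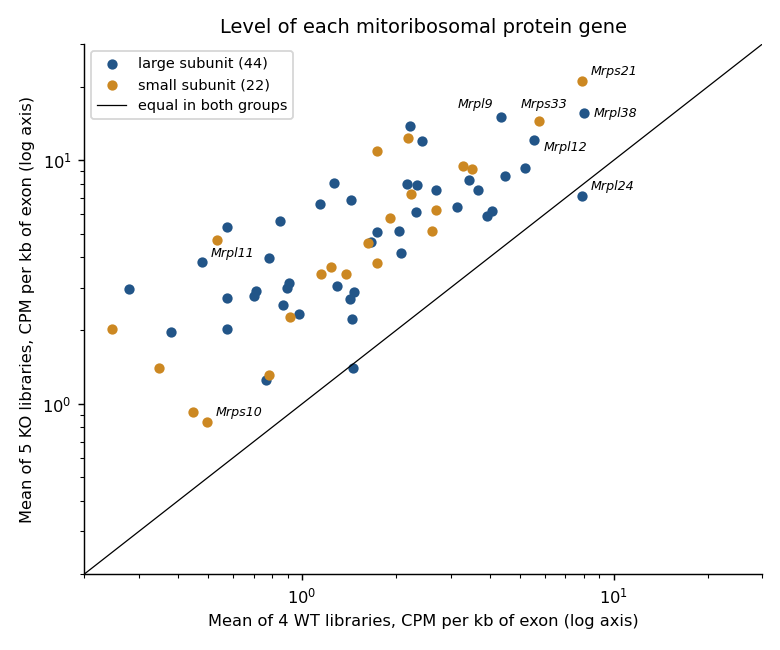
Mean level of each of the 66 mitoribosomal protein genes in the 4 WT libraries (horizontal) and the 5 KO libraries (vertical), in CPM per kb of exon, both axes logarithmic, with large-subunit genes in blue and small-subunit genes in orange. Mrps21 and Mrpl38 lie at the upper right, Mrps10 at the lower left, and Mrpl24 lies below the line of equal levels.

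The comparison of KO with WT asks whether loss of endothelial Mfn2 goes with a different level of these genes. In the deposited CPM, 24 of the 66 members rose in KO and none fell (limma on log2(CPM + 1), Benjamini-Hochberg adjusted p under 0.05 over all genes). Over the whole table the same test called 32% of genes higher and 0.203% lower, and it called 26.5% of 6421 protein-coding genes of like mean CPM higher. By subunit, 16 of 44 large and 8 of 22 small members rose, which is 36.4% of each and near the 32% of all genes. Every member had a log2 fold change above 0, with a median of 1.35 against 1.10 for all genes. In 13 members, 10 large and 3 small, every KO library lay above every WT library, which 18.7% of all genes did, and in none did the reverse hold (0.0254% of all genes). At an unadjusted p under 0.05, 40 members were higher and 0 lower, against 49.7% and 0.356% of all genes.

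The count in the deposited CPM depended on single libraries and on the scale. It was 8 without WT replicate 1, 9 without WT replicate 3, 11 without KO replicate 3, 9 without KO replicate 4 and 10 without KO replicate 5, while the share of all genes called higher moved from 32% to 9.27%, 15.2%, 14.3%, 17.7% and 15.5%. It was 31 without WT replicate 4, where 50.1% of all genes were called higher, and 29 without KO replicate 2, where 32.4% were. Relative to the library median, 0 members passed in either direction by limma, where 0.0339% of all genes were called higher and 0.0763% lower. At an unadjusted p under 0.05, 2 members (Mrpl11 and Mrpl21) were higher and 0 were lower on the relative scale, where 5.99% and 5.69% of all genes were. Every KO library lay above every WT library on that scale in 2 members, Mrpl10 and Mrpl21 (2.07% of all genes), and below in 0 (1.74% of all genes). edgeR with TMM factors and DESeq2 called 0 members on the recovered reads, although DESeq2 gave no adjusted p for 62 of the 66.

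Relative to the library median, 54 of 66 members had a log2 fold change above 0, against 57.9% of all genes. The median was 0.37 over members, 0.12 over all genes and 0.14 over protein-coding genes of like mean CPM. It was 0.37 for the large and 0.42 for the small subunit, so the 2 subunits differed by 0.05. The members ran from -0.80 for Mrpl24 to 1.60 for Mrpl11, both of the large subunit, and the small-subunit genes ran from -0.45 for Mrps10 to 1.41 for Mrps12. The 77 cytosolic ribosomal protein genes had a relative median of 0.28. Among the 42 members with a bacterial homolog 16 rose in the deposited CPM, with a relative median of 0.40, and among the 24 without one 8 rose, with a relative median of 0.36. Both counts lie near the 32% of all genes called higher.

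**Figure D2:**
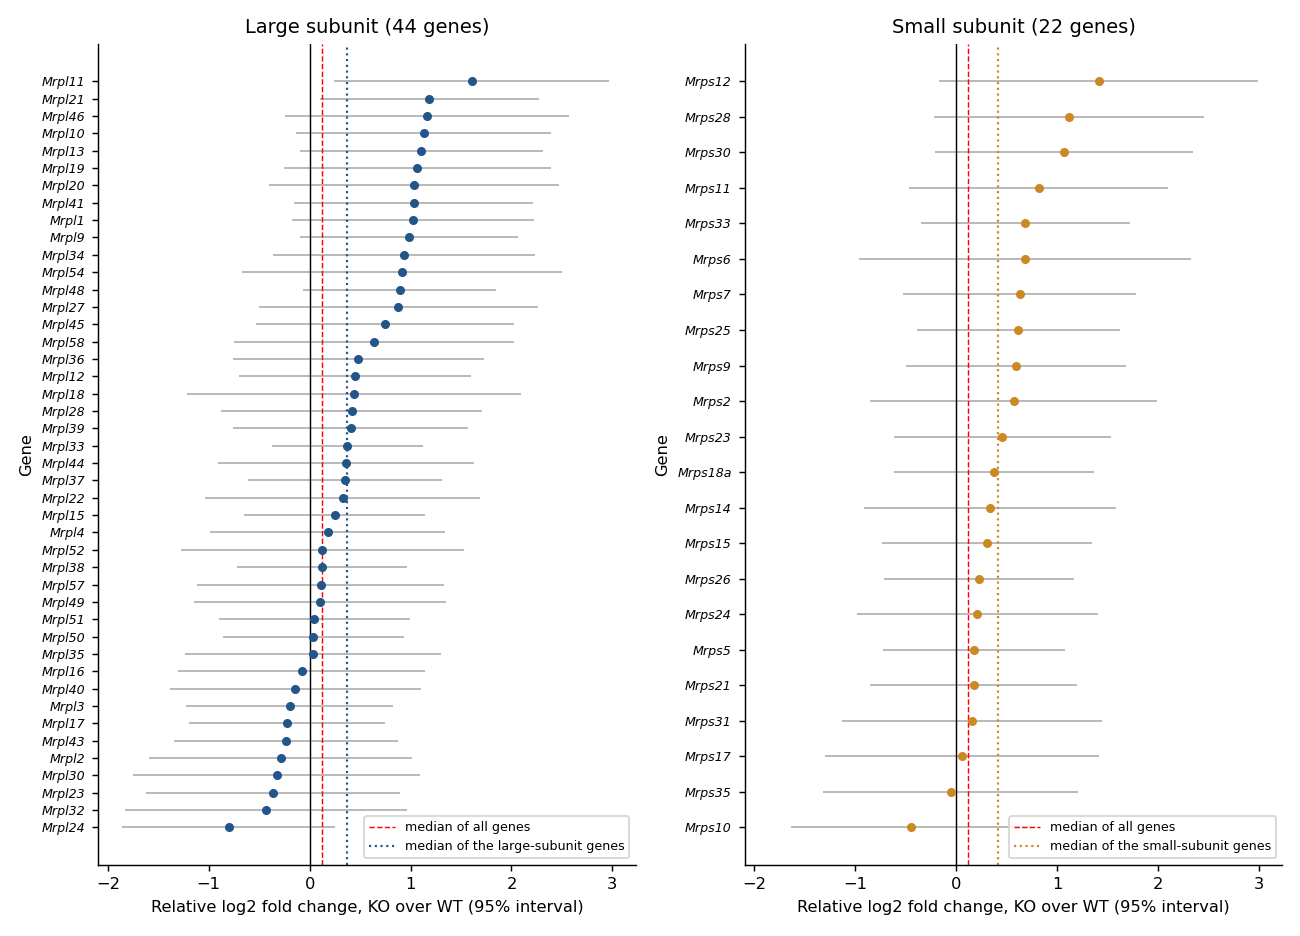
Relative log2 fold change of KO over WT for each of the 44 large-subunit genes (left) and 22 small-subunit genes (right), with 95% intervals from limma as grey bars. The dotted lines mark the subunit medians of 0.37 and 0.42 and the dashed lines the median of all genes, 0.12. Most intervals cross 0.

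The pooled reads of the members gave a steadier value than single genes. As a share of reads from nuclear protein-coding genes, which leaves the mitochondrial RNAs out of the total, members took 0.105%, 0.115%, 0.0848% and 0.0944% in the WT libraries. In the KO libraries they took 0.134%, 0.119%, 0.147%, 0.152% and 0.173%. Every KO library lay above every WT library, but the 95% Wilson intervals of WT replicate 2 (0.109% to 0.122%) and KO replicate 2 (0.113% to 0.126%) overlapped. The means were 0.0998% ± 0.0132 (SD, n = 4) in WT and 0.145% ± 0.0201 (SD, n = 5) in KO, a ratio of 1.45. The ratio was 1.38 without KO replicate 5, which had the highest share, and 1.43 without WT replicate 4. Intervals on shares cover counting error only, and no test was run on a sum over chosen genes. Ratios of such shares were not computed for other gene groups of like level. The values here and by subunit therefore do not show a rise particular to these genes.

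The mean share was higher in KO for both subunits. Large-subunit genes took 0.0698% ± 0.0110 (SD, n = 4) of nuclear protein-coding reads in WT and 0.0983% ± 0.0159 (SD, n = 5) in KO, a ratio of 1.41. The groups overlapped, since KO replicate 2 had 0.0763% and WT replicate 2 had 0.0801%. Small-subunit genes took 0.0300% ± 0.00399 (SD, n = 4) in WT and 0.0466% ± 0.00459 (SD, n = 5) in KO, a ratio of 1.55. Here the groups did not overlap, with 0.0353% as the highest WT and 0.0416% as the lowest KO value.

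The balance between the subunits did not separate the groups. Small-subunit reads made up 27.8%, 30.6%, 35.2% and 27.2% of member reads in WT and 31.2%, 36.0%, 31.8%, 31.8% and 30.8% in KO. WT replicate 3 and KO replicate 2 stood highest, and the other KO libraries lay within the WT range. The means of 30.2% ± 3.64 (SD, n = 4) and 32.3% ± 2.13 (SD, n = 5) differed by less than the spread between WT libraries. The small-minus-large difference in mean log2(CPM + 1) was 0.03, -0.05, 0.18 and -0.11 in WT and 0.01, 0.34, 0.06, -0.12 and 0.04 in KO, and thus overlapped as well. In structures of the ribosome, the proteins of Mrps30 and Mrps18a sit in the large subunit despite their symbols. Counted that way, 17 of 46 large and 7 of 20 small members rose in the deposited CPM, and the relative medians were 0.37 and 0.40.

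**Figure D3:**
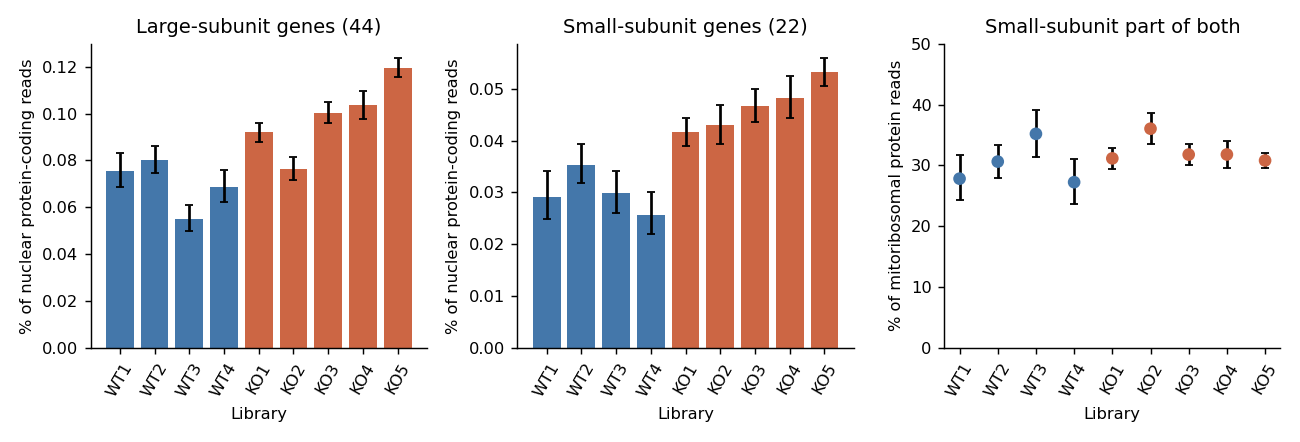
Share of nuclear protein-coding reads from large-subunit (left) and small-subunit genes (middle), and the small-subunit part of all mitoribosomal protein reads (right), in percent, for each WT (blue) and KO (red) library, with 95% Wilson intervals. The small-subunit share is higher in every KO library (0.0416% or more) than in any WT library (0.0353% or less), while the balance between subunits overlaps. The small-subunit intervals of WT replicate 2 and KO replicate 1 overlap.

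Among large-subunit genes, Mrpl11 had the largest difference. It encodes a homolog of the bacterial protein at the base of the stalk, next to the site where translation factors hydrolyse GTP. Its level was 4.05, 1.58, 0.53 and 0 CPM in WT and 6.07, 10.5, 18.4, 12.3 and 14.4 CPM in KO. Every KO library lay above every WT library, although the 4 WT values rest on 9, 4, 1 and 0 reads. Mrpl11 rose by a log2 fold change of 2.58 ± 0.65 (SE) in the deposited CPM (limma adjusted p = 0.00786). Relative to the library median the value was 1.60 ± 0.65 (SE), with a limma adjusted p of 0.344.

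Mrpl9 and Mrpl21, homologs of bacterial large-subunit proteins, also did not overlap between groups. Mrpl9 was at 12.6, 25.3, 5.25 and 3.80 CPM in WT and at 42.8, 27.2, 48.3, 25.8 and 58.7 CPM in KO. The lowest KO value, in replicate 4, exceeded the highest WT value, in replicate 2, only slightly. Mrpl9 rose by 1.96 ± 0.52 (SE) on the log2 scale in the deposited CPM (limma adjusted p = 0.0098), and its relative value was 0.98. Mrpl21 was at 1.35, 1.58, 1.05 and 2.85 CPM in WT and 9.41, 6.69, 9.74, 13.5 and 17.2 CPM in KO, so the WT libraries lay well below the others. The 4 WT values rest on 3, 4, 2 and 3 reads, so their closeness to each other carries little weight. Mrpl21 rose by 2.16 ± 0.62 (SE) in the deposited CPM (limma adjusted p = 0.0138), with a relative value of 1.19 (limma adjusted p = 0.381). Mrpl21 shares 117 exon bases with Ighmbp2 on the other strand and has a pseudogene copy that matches 97.0% over 594 bases, so part of its reads cannot be assigned with certainty. Mrpl11, Mrpl9 and Mrpl21 kept their calls in the deposited CPM when any 1 library was left out.

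Mrpl13 was at 2.70, 0.40, 4.2 and 4.75 CPM in WT and 10.3, 18.6, 14.4, 6.44 and 28.3 CPM in KO, without overlap. It rose by a log2 fold change of 2.08 in the deposited CPM (limma adjusted p = 0.0163), but no longer passed once WT replicate 2 (adjusted p = 0.0562) or KO replicate 5 (adjusted p = 0.0523) was left out. Mrpl13 shares 330 exon bases with Mtbp. Mrpl38 and Mrpl12, which with Mrpl9 had the highest large-subunit means in CPM per kb, did not pass. Mrpl38 was at 10.4, 22.6, 8.40 and 40.9 CPM in WT and 64.4, 36.3, 40.8, 35.1 and 22.4 CPM in KO, where WT replicate 4 reached the KO range. Its deposited log2 fold change was 1.10 (limma adjusted p = 0.0725), and without WT replicate 4 it was 1.51 (adjusted p = 0.0121). Mrpl12 was at 0.45, 17.0, 5.25 and 11.4 CPM in WT and 18.8, 7.65, 19.8, 15.2 and 31.4 CPM in KO, with a deposited log2 fold change of 1.42 (limma adjusted p = 0.0674). Mrpl12 passed once WT replicate 2 (adjusted p = 0.0387), WT replicate 4 (adjusted p = 0.0317) or KO replicate 2 (adjusted p = 0.0460) was left out.

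Other large-subunit genes stood apart from this pattern. Mrpl24, homolog of a bacterial protein that starts large-subunit assembly, was at 8.55, 20.6, 4.2 and 38.0 CPM in WT and 19.7, 21.5, 19.8, 7.61 and 12.1 CPM in KO. The groups overlapped throughout, and the mean CPM was slightly lower in KO, 16.2 against 17.8, while the mean of the log2 values was slightly higher. Its log2 fold change was 0.17 in the deposited CPM (limma adjusted p = 0.795) and -0.80 ± 0.51 (SE) relative to the library median (limma adjusted p = 0.569). Mrpl24 shares 594 exon bases with Rrnad1. Mrpl32, whose precursor is cut by the mitochondrial m-AAA protease before assembly, was at 0, 3.56, 18.9 and 6.65 CPM in WT and 9.41, 6.21, 2.52, 9.37 and 7.46 CPM in KO. WT replicate 3 alone held the highest value, and the relative log2 fold change was -0.44 (0.24 without WT replicate 3). Mrpl23 was at 0.90, 1.58, 5.78 and 6.65 CPM in WT and 7.29, 0.96, 5.77, 5.27 and 11.3 CPM in KO, which overlapped, with a relative log2 fold change of -0.36. A pseudogene copy matches Mrpl23 over 540 bases without a difference (100%).

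Among small-subunit genes, Mrps12 had the largest difference. It encodes the homolog of a bacterial protein at the decoding centre. Mrps12 was at 2.25, 0, 6.83 and 0 CPM in WT and at 17.9, 17.2, 7.21, 2.93 and 19.0 CPM in KO. KO replicate 4 lay within the WT range, and the other KO libraries lay above it. It rose by 2.39 ± 0.70 (SE) on the log2 scale in the deposited CPM (limma adjusted p = 0.0144), while the relative value was 1.41 (limma adjusted p = 0.488).

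Mrps28 and Mrps30 had similar sizes of difference on few reads. Mrps28 was at 0, 3.56, 0 and 1.90 CPM in WT and 11.5, 1.91, 4.33, 14.1 and 11.1 CPM in KO, with KO replicate 2 inside the WT range. It rose by 2.09 in the deposited CPM (limma adjusted p = 0.0253). Mrps30 was at 0, 3.56, 0 and 5.70 CPM in WT and 5.16, 10.99, 5.41, 10.5 and 14.7 CPM in KO, where WT replicate 4 exceeded KO replicates 1 and 3. It rose by 2.04 in the deposited CPM (limma adjusted p = 0.0252). Neither gene passed once any of WT replicates 1 and 3 and KO replicates 4 and 5 was left out (adjusted p from 0.0503 to 0.107). Relative to the library median the values were 1.11 for Mrps28 and 1.07 for Mrps30, neither of which passed.

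Mrps33, a protein with no bacterial counterpart, was at 3.15, 5.93, 2.63 and 26.6 CPM in WT and 22.2, 10.99, 38.2, 32.2 and 17.5 CPM in KO. WT replicate 4 stood apart from the other WT libraries and lay within the KO range. Mrps33 rose by 1.66 in the deposited CPM (limma adjusted p = 0.0304), but no longer passed with any of WT replicates 1, 2 and 3 and KO replicates 3 and 4 left out (adjusted p from 0.0541 to 0.109). With the mean of the endothelial list as a covariate its log2 fold change turned to -0.22 (adjusted p = 0.957). The processed pseudogene Gm5776 matches Mrps33 at 99.7% over 321 bases and was listed with exactly the same number of reads in 4 of 9 libraries. Over all libraries Mrps33 had 380 reads and Gm5776 had 311, and reads from the matching bases cannot be assigned with certainty. The exons of Mrps33 span 1667 bases. Mrpl27 and its copy Gm6304 had equal reads in 4 of 9 libraries, but in WT replicates 1 and 4 both were at 0. They had 117 and 80 reads in all.

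The remaining small-subunit genes named by rank did not pass on either scale. Mrps21 was at 3.60, 5.93, 5.25 and 8.55 CPM in WT and 16.7, 9.08, 16.6, 5.86 and 30.1 CPM in KO, with KO replicate 4 inside the WT range, and its deposited log2 fold change was 1.15 (limma adjusted p = 0.108). Mrps18a, whose protein lies in the large subunit, was at 9.45, 13.1, 2.1 and 15.2 CPM in WT and 18.2, 24.4, 17.7, 30.5 and 24.7 CPM in KO. These groups did not overlap, yet the deposited log2 fold change of 1.35 narrowly missed the threshold (limma adjusted p = 0.0512), and it passed without WT replicate 4 (adjusted p = 0.0170). Mrps10 was at 3.15, 1.98, 4.2 and 6.65 CPM in WT and 8.20, 1.43, 4.33, 9.37 and 10.8 CPM in KO, and its relative log2 fold change was -0.45. The groups of Mrps10 overlapped, as did those of Mrps17 and Mrps35. Mrps17 ran from 0.45 to 11.6 CPM in WT and from 1.91 to 12.9 CPM in KO (relative log2 fold change 0.06), and Mrps35 from 1.90 to 6.30 CPM and from 3.97 to 12.5 CPM (-0.06).

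**Figure D4:**
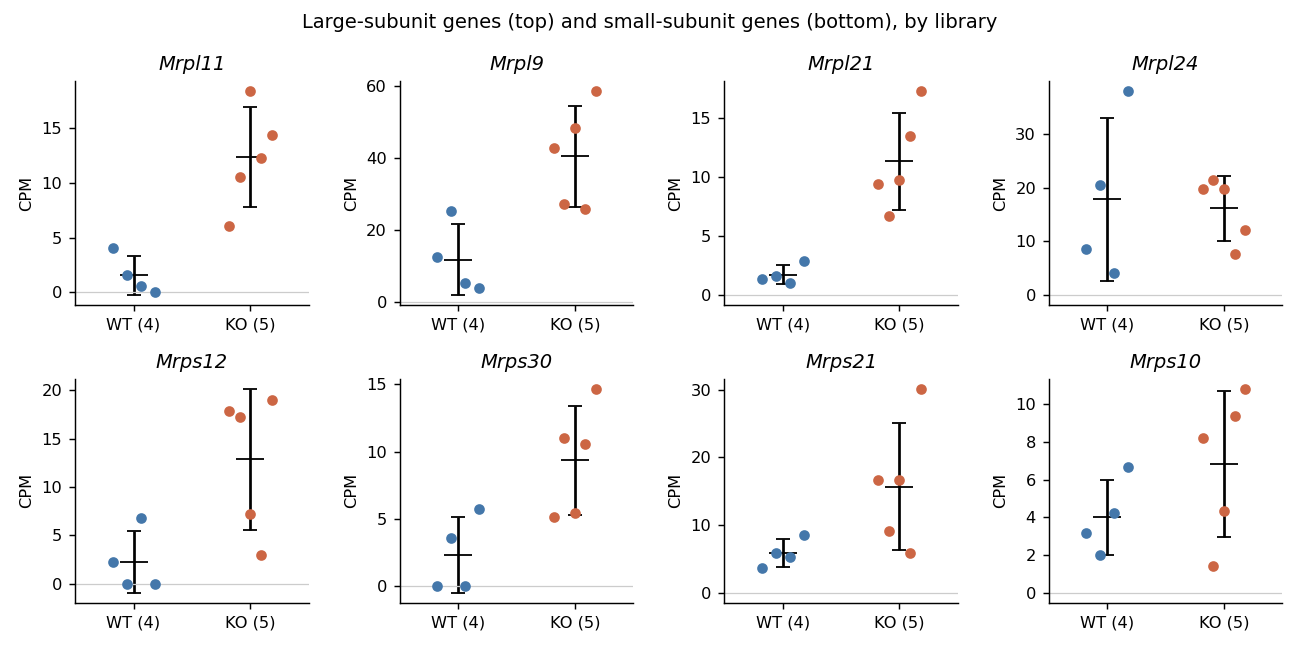
CPM of 4 large-subunit genes (top: Mrpl11, Mrpl9, Mrpl21, Mrpl24) and 4 small-subunit genes (bottom: Mrps12, Mrps30, Mrps21, Mrps10) in each WT (blue, 4) and KO (red, 5) library, with the mean and SD in black. Every KO library lies above every WT library in Mrpl11, Mrpl9 and Mrpl21, and the groups overlap in the other 5 genes.

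The large-subunit gene Mrpl46 and the small-subunit gene Mrps11 lie head to head on chromosome 7, and the pair was picked out after its values were seen. In RefSeq, Mrpl46 starts at 78783089 on the minus strand and Mrps11 at 78783131 on the plus strand, with 41 bases between the starts, inside the Mrps11 window printed above. The YY1 match of that window starts 108 bases before the Mrps11 start, and therefore within the transcribed side of Mrpl46. Mrpl46 was at 1.35, 0.40, 4.73 and 0 CPM in WT and 5.16, 5.26, 5.41, 12.3 and 18.8 CPM in KO. Mrps11 was at 0, 1.19, 0 and 0.95 CPM in WT and 4.55, 1.43, 6.49, 6.44 and 3.09 CPM in KO. In both genes every KO library lay above every WT library, as in 18.7% of all genes, but in each the nearest values of the 2 groups were close. For Mrps11 these nearest values, in WT replicate 2 and KO replicate 2, rest on 3 reads each.

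Mrpl46 rose by 2.14 in the deposited CPM (limma adjusted p = 0.0205) and Mrps11 by 1.79 (limma adjusted p = 0.0453). With WT replicate 1 left out Mrpl46 no longer passed (adjusted p = 0.0544), nor with KO replicate 5 left out (adjusted p = 0.0644). Mrps11 kept its call only without WT replicate 4 or KO replicate 2 among the 9 libraries left out in turn. Relative to the library median the log2 fold changes were 1.16 for Mrpl46 (limma adjusted p = 0.527) and 0.82 for Mrps11 (limma adjusted p = 0.638). On that scale the groups overlapped in both genes. The annotated exons of the pair share 173 bases on opposite strands, and the library kit does not mark the strand.

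The members with the NRF1 core were not all called. Mrpl9 and Mrpl10 rose in the deposited CPM, and Mrpl17, Mrpl22, Mrpl32 and Mrpl39 did not pass. The deposited log2 fold change was 2.11 in Mrpl10 (limma adjusted p = 0.0242), 0.75 in Mrpl17 and 1.31 in Mrpl22, which, like Mrpl39, were named after their values were seen. Mrpl10, homolog of the bacterial protein that anchors the stalk, was at 0, 0, 0 and 1.90 CPM in WT and 3.34, 2.87, 9.02, 3.51 and 6.43 CPM in KO, and it no longer passed with any of WT replicates 1, 2 and 3 and KO replicates 3 and 5 left out (adjusted p from 0.0523 to 0.0791). Mrpl39 was at 2.70, 8.70, 1.58 and 14.3 CPM in WT and 15.8, 4.78, 16.2, 12.3 and 46.0 CPM in KO, with KO replicate 5 far above the rest. Its deposited log2 fold change was 1.38 (limma adjusted p = 0.0757) and its relative one was 0.41. Leaving out WT replicate 4 brought the deposited value past the threshold (adjusted p = 0.0225), as did leaving out KO replicate 2 (adjusted p = 0.0376). Of the 30 members whose promoter held an NRF1 (one base free), ETS or YY1 match, 9 rose in the deposited CPM and the relative median was 0.36. Of the 28 without a match, 11 rose and the relative median was 0.51. Neither count lies far from the 32% of all genes, and the difference between them was not tested.

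Shared sequence touched a part of the members. Exon bases of another gene in the table overlapped 16 members, and 14 had a processed pseudogene copy with at least 95% identity over at least 200 bases. For 4 of these (Mrpl27, Mrpl51, Mrps33 and Mrps5) the copy was itself in the table. In the 39 members with neither, 13 rose in the deposited CPM and the relative median was 0.37, as over all members. Among the 24 members with a mean of at least 10 CPM, 7 rose and the relative median was 0.32. Both counts are near the 32% of all genes.

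Some mitoribosomal proteins have symbols that do not start with Mrp. Of the 5 in the list 4 were measured and 2 rose in the deposited CPM, Aurkaip1 and Dap3. Over all genes 32% were called higher, and 4 genes are too few to set against that share. Aurkaip1, a small-subunit protein, was at 3.60, 8.70, 11.6 and 12.4 CPM in WT and 33.1, 25.3, 37.9, 31.6 and 59.7 CPM in KO. Dap3, a GTP-binding small-subunit protein, was at 4.05, 9.89, 6.83 and 7.60 CPM in WT and 37.9, 25.8, 19.5, 29.3 and 21.6 CPM in KO. In both genes the groups did not overlap, as in 18.7% of all genes, and the lowest KO value lay well above the highest WT value. Aurkaip1 rose by 1.99 (limma adjusted p = 0.00789) and Dap3 by 1.80 (limma adjusted p = 0.0139) in the deposited CPM, and the relative values were 1.01 and 0.82, which did not pass. Both calls held with any 1 library left out.

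Genes that build or serve the mitoribosome were measured beside it, and their counts are to be read against the 32% of all genes called higher, a share that only the tRNA-loading list reached, by less than 1 gene. Of 29 genes for its assembly and rRNA modification 19 were measured and 5 rose in the deposited CPM: the helicases Dhx30 and Ddx28, the GTPases Mtg2 and Noa1 and the methyltransferase Trmt61b. Their relative median was 0.43. Of 21 mitochondrial translation factors 16 were measured and 3 rose, the elongation factor Tufm, the recycling factor Mrrf and the RNA-binding protein Lrpprc, with a relative median of -0.07. The initiation factor Mtif2, chosen here after its values were seen, was at 32.4, 39.2, 28.4 and 104 CPM in WT and 45.5, 46.4, 12.3, 27.5 and 26.5 CPM in KO. Its relative log2 fold change of -1.58 did not pass (limma adjusted p = 0.143), but did with KO replicate 1 left out (adjusted p = 0.0487). Of 20 genes for loading mitochondrial tRNAs 15 were measured and 5 rose (Nars2, Hars2, Tars2, Iars2 and Gatb), with a relative median of 0.28. Of 18 genes for mitochondrial transcription and its regulators 14 were measured and 2 rose, the DNA polymerase Polg and the DNA-packaging factor Tfam, with a relative median of 0.04. With 1 library left out the calls of Nars2, Hars2 and Tars2 held, while each of the other 12 was lost in at least 1 of the 9 fits, Dhx30 only without WT replicate 1 (adjusted p = 0.0633). None of these lists had a gene called relative to the library median.

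The ribosomal RNAs with which the members assemble had lower means in KO. As a share of listed reads, mt-Rnr1 and mt-Rnr2 together took 64.8%, 47.5%, 48.3% and 13.9% of the WT and 18.1%, 25.2%, 19.8%, 15.1% and 12.8% of the KO libraries. WT replicate 4 lay with the KO libraries in this share, and its member share was 0.0944%, below that of every KO library. That library had the fewest listed reads, and the relation between the shares was not tested. The relative log2 fold changes were -2.16 for mt-Rnr1 and -2.06 for mt-Rnr2, and neither passed in limma (adjusted p = 0.410 and 0.578). The 13 mitochondrially encoded mRNAs, which the mitoribosome translates, had a relative median of -1.65. Of these, mt-Co1, mt-Co2 and mt-Co3, which encode cytochrome oxidase subunits, fell relative to the library median, and mt-Co2 also fell in the deposited CPM. That deposited call no longer held without WT replicate 3 (adjusted p = 0.0761), WT replicate 4 (log2 fold change -0.77, adjusted p = 0.125) or KO replicate 3 (adjusted p = 0.0569). The relative call of mt-Co2 (-2.42, limma adjusted p = 0.0491) no longer held with any of WT replicates 1, 3 and 4 and KO replicates 3, 4 and 5 left out (adjusted p from 0.0578 to 0.182), and mt-Co1 and mt-Co3 each lost theirs in 7 of 9 such fits. Mitochondrial RNA is not bound by the tagged cytosolic ribosome, and its source in these captures was not tested.

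**Figure D5:**
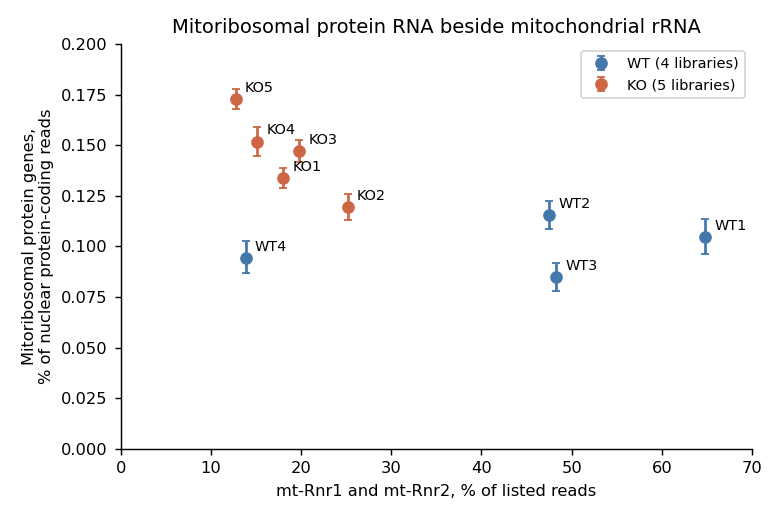
Share of nuclear protein-coding reads from the 66 mitoribosomal protein genes (vertical, in percent, with 95% Wilson intervals) beside the share of all listed reads from mt-Rnr1 and mt-Rnr2 (horizontal, in percent) in each WT (blue) and KO (red) library. WT replicate 4, at 13.9% rRNA, has a member share of 0.0944%, below the KO libraries at 12.8% to 25.2% rRNA. The relation between the shares was not tested.

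Depth and other contents of the libraries moved with the groups and with the members. The highest CPM of a member fell in KO replicate 5 for 32 of 66 genes and in KO replicate 4 for 18. KO replicate 5 had the most reads, the lowest rRNA share and the highest sums of endothelial, adipocyte and skeletal muscle markers. Its adipocyte sum was mostly Fabp4. Among the KO libraries, Fabp4, Plin4 and Lep were highest in that library, whereas Adipoq, Plin1, Lipe, Pnpla2 and Retn were lowest there. The deposited count of 24 members fell to 0 when CPM were recomputed without the mitochondrial rRNAs, and to 0 when the rRNA share or the mean of the endothelial list entered the fit. In the same 3 fits the whole table kept 21, 16 and 0 genes called higher, so few genes of any kind remained. The members' median in CPM recomputed without the rRNAs was 0.95, against 0.59 for all genes.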

How the data were processed

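The authors deposited CPM, each gene's reads scaled to a library total, for 11802 genes in 9 libraries. Per the submitters' processing notes, the tools were HISAT2 2.1.0, Trimmomatic 0.39, FastQC 0.11.9, R 4.0.2 and edgeR 3.32.0 and the builds GRCm38 and mm10, with no role given for each. The counting tool, its strand setting and its handling of reads with several matches were not stated. Whole reads were recovered from the CPM steps within 0.1 read. GENCODE M21 matched 11797 genes and gave symbols, exon lengths and overlaps.

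KO was compared with WT by limma 3.58.1 (R 4.3.3) with a trend on log2(CPM + 1), which understates changes of low genes, over all genes and without a filter. A Benjamini-Hochberg adjusted p under 0.05 was a call. No gene averaged under 1.77 CPM. The alternatives included edgeR 4.0.16 and DESeq2 1.42.0 on recovered reads, and the test was checked on simulated data. The simulated reads held no shift of nearly all genes between groups, so that check does not cover the shift in these data. DESeq2's filtering threshold was set to the call threshold after a first run.

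The members and lists were chosen with earlier results of these data known. Members named with values (19, plus Mrpl10, Mrpl17, Mrpl22, Mrpl39 and Mrps11 after their values were seen) were, in each subunit, those with the highest and lowest mean CPM per kb, the smallest p, the highest and lowest relative fold change, and those whose symbol and place in the ribosome differ. From other lists, the 4 called genes with the smallest p were to be named, and further called genes are named without values. Subunit places in the structure and bacterial descent were assigned from general knowledge. The letters searched in promoters were shortened after a first search with longer motifs.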

Additional observations from a re-analysis of the deposited data

Results flagged for a closer look

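Among 54 groups of 4 or 5 libraries checked for a single value standing apart by Dixon's ratio, 4 stood apart, and chance alone gives about 1 in 20. Mrpl10 was at 1.9 CPM (2 reads) in WT replicate 4 and at 0 in the other WT libraries. Mrpl39 was at 46.04 CPM in KO replicate 5, against 16.2 CPM or less in the other KO libraries. Mrps33 was at 26.61 CPM in WT replicate 4, against 5.93 CPM or less in the other WT libraries. The small-subunit part of mitoribosomal protein reads was 36.0% in KO replicate 2, against 31.8% or less in the other KO libraries. The causes were not tested.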

How the results depend on the processing

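The count of 24 members higher in the deposited CPM was 0 after quantile normalisation, without mt-Rnr1 and mt-Rnr2, with the rRNA share or the endothelial list mean as a covariate, with edgeR and TMM, and with DESeq2, which left 62 members without an adjusted p. In the same order, these settings called 4, 21, 16, 0, 1 and 31 of all genes higher, so few genes of any kind remained. It was 8 with edgeR on library totals (17.8% of all genes), an alternative chosen after seeing the data, and 8 to 31 with 1 library left out. No gene had a mean CPM under 1. The count was 24 and 21 at pseudocounts of 0.5 and 5, where 31.1% of all genes were called higher at each. Among genes with a mean of 5 CPM or more it was 20 (33% of all such genes). It was 28 without trend (24.6% of all genes) and 33 with array weights (46.4% of all genes). With the replicate block it was 12, and over all genes 1932 (16.4%). After the group mean of each gene was subtracted, the deviations of same-numbered libraries correlated at 0.03, -0.02, -0.04 and 0.04. The number was therefore not taken as pairing, and the block leaves KO replicate 5 without a partner. In all these settings 0 members were called lower, and 0 were called relative to the library median. The relative median of the large subunit was 0.080 with a pseudocount of 5, where that of the small subunit was 0.13 (0.65 with the rRNA covariate). The small-minus-large difference of 0.05 was -0.03 with a pseudocount of 0.5, -0.06 without the rRNAs, -0.11 without WT replicate 4 and -0.04 without KO replicate 2. The causes of these changes were not tested. In a WT library without a read of a member, differences under 1.19 to 2.85 CPM were not detectable.

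Some values changed sign, among them Mrps33, which was called in the deposited CPM. None of the values of changed sign passed the threshold (Mrps17 had no adjusted p in DESeq2). In the deposited CPM, with the endothelial covariate, log2 fold changes were -0.59 for Mrpl12, -0.80 for Mrpl23, -0.72 for Mrpl24, -0.10 for Mrpl32, -0.22 for Mrps33, -0.36 for Mrps10, -0.53 for Mrps17, -0.69 for Mrpl39, -0.44 for Mrpl22, 0.31 for mt-Rnr2 and 0.12 for mt-Rnr1. With the rRNA covariate they were -0.54 for Mrpl23, -0.72 for Mrpl24, -0.56 for Mrpl32, -0.23 for Mrps10, -0.26 for Mrps17 and 0.16 for mt-Rnr2. With edgeR on library totals they were -0.11 for Mrpl24 and -0.0504 for Mrpl32, and Mrpl24 was at -0.37 without the rRNAs. With 1 library left out, Mrpl24 ran from -0.31 to 0.66 and Mrpl32 from -0.25 to 1.19.

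On the relative scale, the rRNA covariate gave 1.06 for Mrps35, -0.62 for Mrps17, 0.067 for Mfn2, -0.30 for Mrpl39, 0.41 for Mrpl17 and -0.22 for Mrpl22, and the endothelial covariate gave 0.090 for Mrpl32, 0.89 for Mrps35, -0.27 for Mrps17, 0.25 for Mfn2, -0.43 for Mrpl39 and -0.24 for Mrpl22. A pseudocount of 0.5 gave 0.002 for Mrps35, and one of 5 gave -0.25 for Mrps17, -0.0249 for Mrps11, -0.20 for Mrpl22 and -0.0489 for Ddx28. Quantile normalisation gave -0.064 for Mrps17, -0.0038 for Mrpl22 and 0.26 for mt-Rnr2, edgeR with TMM -0.31 and DESeq2 -0.30 for Mrps17. With 1 library left out, relative values ran from -1.02 to 0.24 for Mrpl32, -0.48 to 0.38 for Mrps35, -0.35 to 0.62 for Mrps17, -0.53 to 0.081 for Mrpl17, -0.13 to 0.63 for Mrps18a, -0.0825 to 0.95 for Tfam and -0.44 to 0.059 for Mfn2. Deposited values of single genes were not recomputed with quantile normalisation, TMM or DESeq2, which remove the shift between groups. Relative values under the alternatives were computed only for part of the named genes.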
